A study of Gallus gallus with 6 samples.

Results

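HOX genes encode homeodomain transcription factors that tell cells where along the body they lie. They sit in 4 clusters, HOXA to HOXD, and each gene carries a paralogue number that follows its order in the cluster; low numbers are expressed from the head end backwards and high numbers only towards the tail and the tips of the limbs. Fibroblasts of different skin regions are known to keep such a HOX pattern in culture. HOX proteins bind DNA together with TALE homeodomain partners of the PBX and MEIS families, and their clusters are held on or off by Trithorax and Polycomb complexes. The receptor kinase inhibited here carries signals of TGF-beta and of related ligands such as GDF11, and in mice GDF11 shifts HOX expression along the trunk.

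HOX genes were described in cultured chicken embryo dermal myofibroblasts, contractile matrix-producing fibroblasts from day 10 skin explants of brown Leghorn embryos. The tested cultures received 500 nM TGFBR1 Kinase Inhibitor II, a small molecule against the type I TGF-beta receptor kinase, dissolved in DMSO, for 48 h, and the controls received 0.1% DMSO only. Each condition had 3 biological replicates on Affymetrix chicken arrays, 6 arrays in all, and the medium of both held 4% serum of fetal calves with 2% serum of chickens. The labels do not say from which body region the skin was taken, and give no embryo of origin for the replicates. The p-values therefore cover only the variation among these cultures, which may not be variation among embryos. Members were all probe sets whose platform annotation gives a single symbol made of HOX, a cluster letter and a number. That rule found 59 probe sets of 29 genes, among 38439 non-control probe sets and 13009 singly named genes. All 29 gene identifiers were found in the gene table of assembly GRCg7b.

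The values are log2 intensities normalized by the submitters with GCRMA, which gathers dim probe sets at a floor of about 2 to 3. A probe set was called expressed where it reached a log2 value of 4 in all 6 arrays, and was tested where it did so in at least 3 of them. From 16356 to 16594 probe sets reached that limit per array, and arrays correlated with their own group at 0.978 to 0.984 and with the other group at 0.947 to 0.952 over the tested probe sets. TGFBI, a TGF-beta-induced matrix protein, stood at 9.14, 7.57 and 8.88 in inhibitor arrays, against 13.2, 12.0 and 13.1 in DMSO arrays. All 12 of the listed fibroblast and myofibroblast markers, COL1A1, VIM and TAGLN among them, reached the limit in all 6 arrays. Of the 12, POSTN fell (-2.81 ± 0.55; limma adjusted p 0.0217) and PDGFRB rose (1.2 ± 0.18; 0.00919). The other 10 did not pass, LUM among them (-1.95 ± 0.55; limma adjusted p 0.0651, and 0.00421 blocked by replicate number). The summed level of the 12 was 17.48 to 17.73 in inhibitor arrays, against 17.8 or more in DMSO arrays (log2 of summed intensities). Of 7 epidermal markers 6 stayed below it in every array, KRT5, TP63 and CDH1 included, as did all 5 skeletal muscle markers. Of the 6 leukocyte markers, PTPRC, CSF1R, CD74 and CTSS reached the limit in all 6 arrays, and SPI1 and LCP1 lay at the floor. PTPRC, the brightest, had 8.13, 8.73 and 8.23 in inhibitor arrays, against 7.72, 7.30 and 7.85 in DMSO arrays (0.74 ± 0.22; limma adjusted p 0.078). The summed level of these 6 markers was 8.72 to 9.16 in inhibitor arrays, against 8.19 to 8.46 in DMSO arrays (log2 of summed intensities). That of the 6 melanocyte markers was 8.97 to 9.36 in inhibitor arrays, against 7.77 to 8.71 in DMSO arrays, carried by MITF (0.97 ± 0.27; limma adjusted p 0.0619, and 0.00729 blocked by replicate number), while SOX10, TYR, DCT, PMEL and MLANA lay at the floor. Endothelial markers summed to 10.90 to 11.13 in inhibitor arrays, against 10.65 to 10.96 in DMSO arrays, carried by ERG, with CDH5, KDR, TEK and TIE1 not passing the filter. PECAM1, another endothelial marker, ran against that sum and fell (-0.82 ± 0.20; limma adjusted p 0.0409). CLDN5, the remaining endothelial marker, reached the limit in all 6 arrays, at 7.70 to 8.66, and its groups overlapped (-0.14 ± 0.29). The part of these cell types in the HOX values was not tested, and in bulk RNA fewer cells of a type and less RNA per cell cannot be told apart.

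The measured HOX genes expressed in these cells were mostly those of the HOXA cluster. HOXA3, HOXA4, HOXA5, HOXA6, HOXA7, HOXA9, HOXA10 and HOXA11 each had at least 1 probe set at the limit in all 6 arrays, which is 8 of the 10 HOXA genes measured. From the other clusters came HOXB3 (1 of 9 genes), HOXC9 (1 of 4), and HOXD8 and HOXD13 (2 of 6). In all, 16 of 59 HOX probe sets (27.1%) and 12 of 29 HOX genes (41.4%) were expressed by this limit, against 40.6% of all probe sets and 60.0% of all singly named genes.

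**Figure D1:**
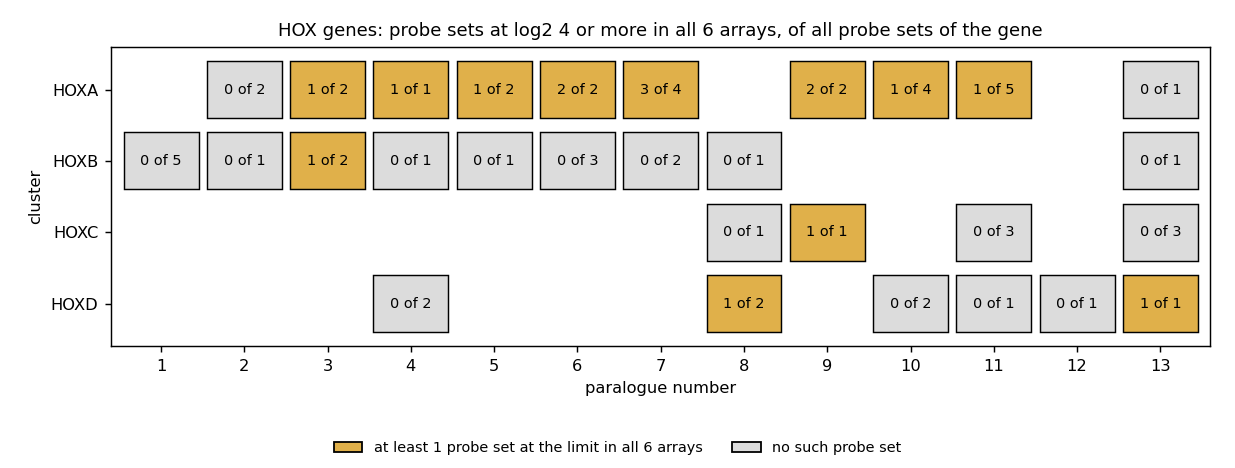
Map of the HOX genes by cluster (vertical axis) and paralogue number (horizontal axis). Each box gives how many of a gene's probe sets reached a log2 value of 4 in all 6 arrays, gold boxes have at least 1 and grey boxes none, and only the 29 genes measured have a box; the gold boxes run from HOXA3 to HOXA11 with 1 in HOXB, 1 in HOXC and 2 in HOXD.

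By paralogue number, none of the 3 genes of groups 1 and 2 was expressed, HOXA2, HOXB1 and HOXB2. Both measured genes of group 3 were, HOXA3 and HOXB3. Among groups 4 to 8 it was 5 of 12 genes, and among groups 9 and 10 it was 3 of 4, HOXA9, HOXA10 and HOXC9. Of 8 genes in groups 11 to 13, HOXA11 and HOXD13 reached the limit, and HOXD13, which patterns the digits and genital tubercle in vertebrates, did so narrowly. Its values were 4.20, 4.51 and 4.14 in inhibitor arrays, against 4.22, 4.52 and 4.22 in DMSO arrays, so both groups lay just above the limit and overlapped.

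Of the other 43 HOX probe sets, a second one of HOXA11 reached the limit in 5 arrays, and 42 stayed below 4 in every array, at 1.84 to 3.95. The HOXB cluster other than HOXB3 was dim throughout: HOXB1 (5 probe sets), HOXB2, HOXB4, HOXB5, HOXB6 (3), HOXB7 (2), HOXB8 and HOXB13 did not exceed 3.20. In HOXC, HOXC8 lay at 2.11 to 2.15, and HOXC11 and HOXC13 did not exceed 2.80. In HOXD, HOXD10, HOXD11 and HOXD12 did not exceed 3.58, and HOXD4 reached 3.95 in DMSO replicate 3, just outside the limit, with 2.46 to 3.07 in the other 5 arrays by the same probe set. HOXA2 and HOXA13 did not exceed 2.32. A dim probe set does not show that its gene is silent: 7 expressed genes, HOXA3, HOXA5, HOXA7, HOXA10, HOXA11, HOXB3 and HOXD8, had other probe sets of the same symbol below the limit in all arrays. Of these 7, all but HOXA7 counted as expressed by 1 probe set each. For HOXA5 and HOXA10 its name ends in _s_at, the suffix for probe sets that can match more than 1 transcript. Which transcripts these bind was not tested. Whether the bright or the dim probe sets read their gene more closely was not tested.

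One HOX gene rose past the test with the inhibitor. HOXA3, a gene of hindbrain, neck and pharyngeal patterning, had log2 values of 9.30, 8.73 and 9.29 in inhibitor arrays, against 7.99, 7.41 and 7.93 in DMSO arrays. The groups did not overlap, and the lowest array of each group was replicate 2. Its log2 difference was 1.33 ± 0.23 (SE, n = 3 arrays per group, 2.52-fold; limma adjusted p 0.0141), and 5.09% of all tested probe sets differed by as much in either direction. The 3 same-numbered pairs differed by 1.31, 1.33 and 1.36. The call was lost without inhibitor replicate 1 (1.24; limma adjusted p 0.0554) and held without each other array (0.0161 to 0.0481).

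Without the replicate number in the model, HOXA3 was thus the single call among 17 tested HOX probe sets, 5.88% against 13.8% of all tested probe sets (7.27% higher and 6.51% lower). At an unadjusted p under 0.05, 5 HOX probe sets were higher and 1 was lower, 6 of 17, against 29.3% of all tested probe sets (15.4% higher and 13.9% lower). HOXA3 was also the single call among 12 tested HOX genes, 8.33% against 15.7% of genes. The labels describe no pairing of the arrays of the 2 groups. Deviations of same-numbered arrays from their group means correlated at 0.63, 0.67 and 0.45 in these same data. The replicate number was therefore also fitted as a block. With the replicate number as a block, 7 HOX probe sets were higher and 1 was lower, 47.1% against 28.1% of all tested probe sets (14.9% higher and 13.2% lower). By gene, 5 of 12 were higher and 1 lower with the block, 50% against 31.6% of all genes (16.5% higher and 15.2% lower). These were HOXA3, HOXA6, HOXA11, HOXB3 and HOXC9, higher, and HOXD8, lower. HOXA7 joined them only by 2 dimmer probe sets. Of the 12 genes 9 had a positive difference, with a median of 0.28, against 0.0074 over all 8124 tested genes.

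**Figure D2:**
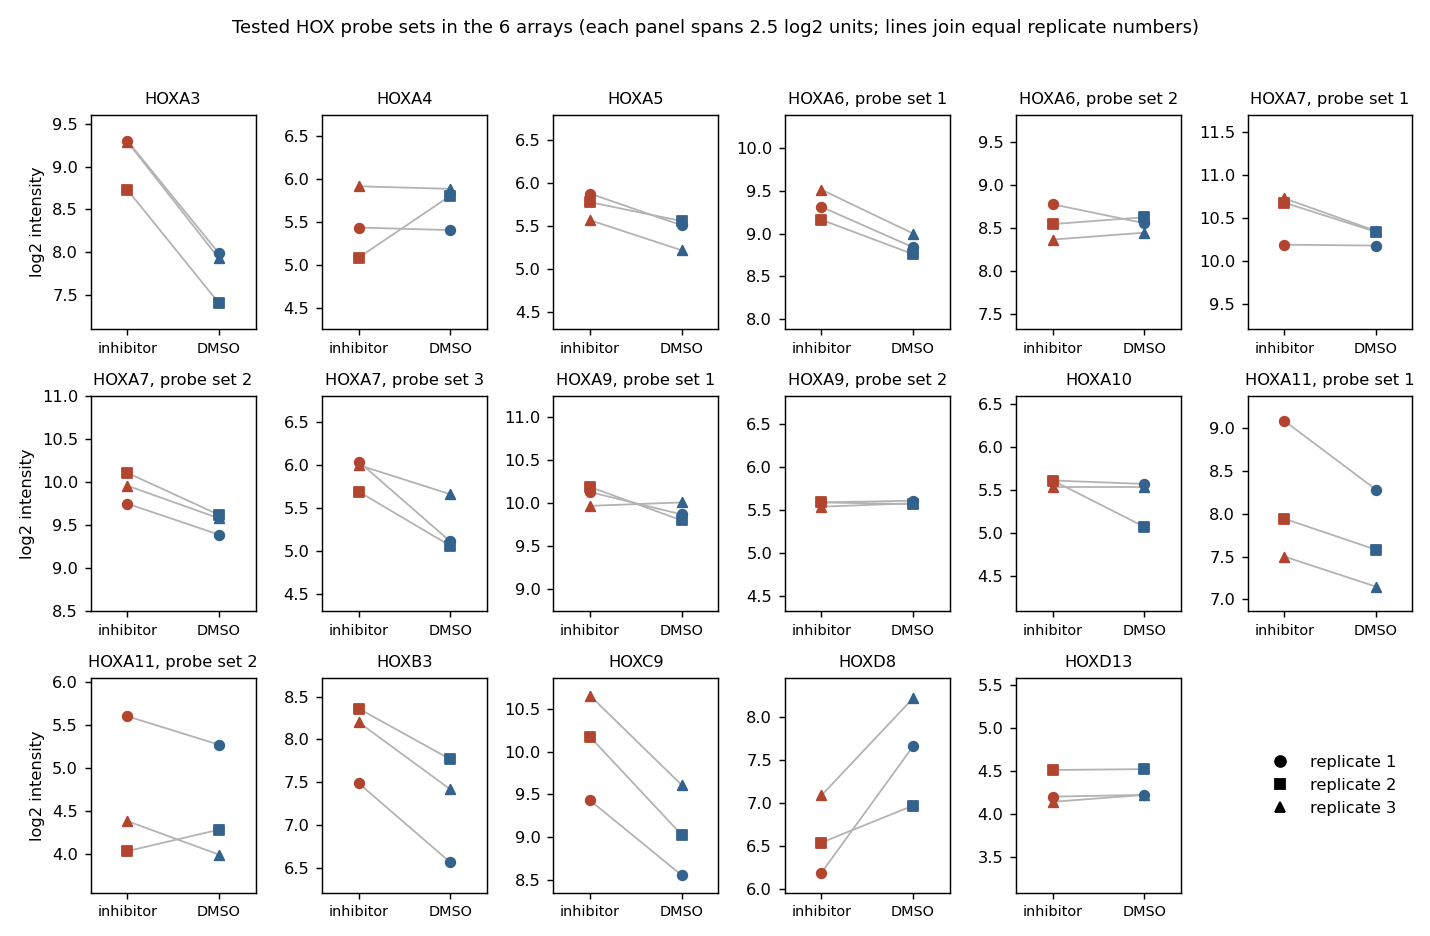
Log2 intensity of the 17 tested HOX probe sets in inhibitor arrays (red, left) and DMSO arrays (blue, right), with a line joining the arrays of each replicate number and 2.5 log2 units in every panel. HOXA3, HOXB3 and HOXC9 were lower in the DMSO array of every pair and HOXD8 was higher there, whereas HOXD13 was nearly level.

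HOXB3, the paralogue of HOXA3 in the second cluster, had values of 7.49, 8.36 and 8.20 in inhibitor arrays, against 6.57, 7.77 and 7.42 in DMSO arrays. The groups overlapped, because replicate 1 was lowest in both, while each inhibitor array lay above its same-numbered DMSO array by 0.92, 0.58 and 0.78. Its log2 difference of 0.76 ± 0.37 did not pass without the block (limma adjusted p 0.227) and passed with it (0.00926). Without the block and without DMSO replicate 1 it was 0.42, and with the block it missed the threshold without replicate 1 of both groups (0.68; limma adjusted p 0.0695). With all arrays, both expressed group 3 genes thus passed with the block, in the same direction. The probe sets cannot be tied to single transcripts, since the annotated span of HOXA3 overlaps those of HOXA4, HOXA5 and HOXA6, and that of HOXB3 those of HOXB4, HOXB5 and HOXB6.

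Central HOXA genes did not pass the test without the block. HOXA4 stood at 5.44, 5.09 and 5.92 in inhibitor arrays, against 5.41, 5.81 and 5.89 in DMSO arrays (-0.22 ± 0.25, 95% interval -0.82 to 0.39). HOXA5, which in mice patterns the cervical and thoracic skeleton and the lung, stood at 5.88, 5.78 and 5.57 in inhibitor arrays, against 5.51, 5.56 and 5.22 in DMSO arrays (0.31 ± 0.16; limma adjusted p 0.252, and 0.141 with the block). Its groups did not overlap, which held for 5 of the 17 probe sets (29.4%), all higher, and for 35.8% of all tested probe sets (18.7% higher and 17.1% lower).

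HOXA6 was read by 2 probe sets that disagreed. The representative one had values of 9.31, 9.16 and 9.51 in inhibitor arrays, against 8.84, 8.76 and 9.0 in DMSO arrays, without overlap (0.46 ± 0.13; limma adjusted p 0.0700, and 0.0151 with the block). The blocked call was lost without replicate 1 (limma adjusted p 0.105) or replicate 2 (0.0702) of both groups. The other probe set overlapped, at 8.78, 8.55 and 8.37 in inhibitor arrays, against 8.56, 8.63 and 8.45 in DMSO arrays (0.02 ± 0.14, 95% interval -0.32 to 0.36). Which of them measures HOXA6 more closely was not tested.

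HOXA7, a trunk HOX gene, was read by 3 tested probe sets, all with a positive difference. The one that represents it had 10.19, 10.68 and 10.73 in inhibitor arrays, against 10.18, 10.34 and 10.35 in DMSO arrays (0.25 ± 0.16; limma adjusted p 0.367, and 0.128 with the block). Its replicate 1 arrays were level and the other pairs differed by 0.34 and 0.39. The next differed by 0.41 ± 0.13 (0.0889, and 0.0168 with the block), and the dimmest by 0.63 ± 0.21 (0.0997, and 0.0424 with the block), both without overlap between groups. Both of these blocked calls were lost without replicate 1 or replicate 2 of both groups (limma adjusted p 0.0919 to 0.21).

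Among the genes of groups 9 to 11, HOXA9 had 10.13, 10.19 and 9.97 in inhibitor arrays, against 9.87, 9.80 and 10.01 in DMSO arrays. The groups overlapped and the 95% interval of the difference was -0.06 to 0.46. Its other tested probe set differed by -0.01 ± 0.12. HOXA10, which shares part of its annotated span with HOXA9, had 5.61, 5.61 and 5.54 in inhibitor arrays, against 5.57, 5.07 and 5.54 in DMSO arrays, apart only in replicate 2 (0.20 ± 0.17).

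HOXC9, which is expressed in the posterior trunk and hindlimb region of vertebrate embryos, gave the second largest positive difference. Its values were 9.43, 10.17 and 10.65 in inhibitor arrays, against 8.56, 9.03 and 9.61 in DMSO arrays. The groups overlapped, yet all 3 pairs differed by a similar amount, 0.87, 1.13 and 1.04. The difference of 1.02 ± 0.38 (2.02-fold) did not pass without the block (limma adjusted p 0.132) and passed with it (0.0018), also after leaving out any replicate number from both groups (0.00268 to 0.0149).

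HOXD8 was the HOX gene with the largest negative difference. It had 6.19, 6.54 and 7.09 in inhibitor arrays, against 7.66, 6.97 and 8.22 in DMSO arrays, overlapping because inhibitor replicate 3 lay above DMSO replicate 2. The pairs differed by -1.47, -0.43 and -1.13, so replicate 2 showed the smallest difference. The log2 difference of -1.01 ± 0.37 had a limma adjusted p of 0.127 without the block and 0.0238 with it, and the blocked call was lost without replicate 1 of both groups (-0.78; limma adjusted p 0.115). Over all tested HOX probe sets, 9 of 17 (52.9%) were higher in all 3 pairs and 2 (11.8%), HOXD8 and HOXD13, were lower in all 3, against 32.1% and 29.4% of all tested probe sets (61.5% in either direction).

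**Figure D3:**
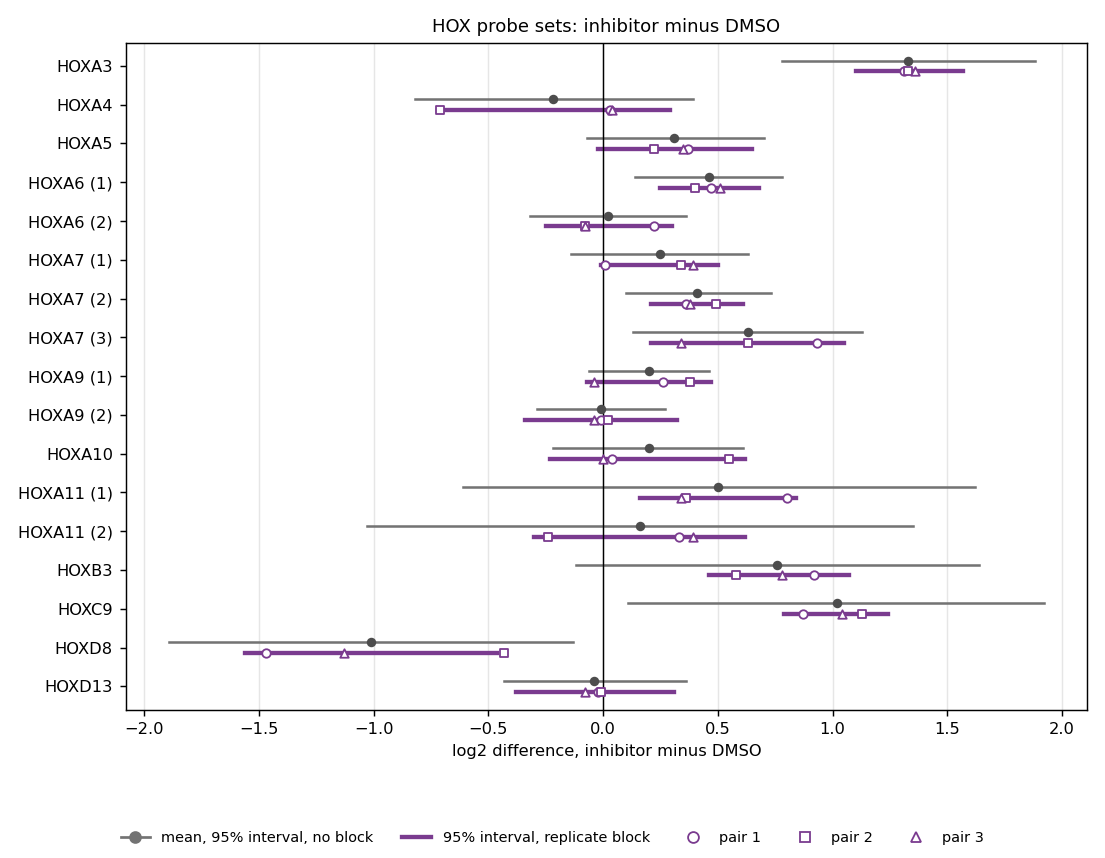
Log2 difference, inhibitor minus DMSO (horizontal axis), for the 17 tested HOX probe sets, with numbers in brackets for probe sets of one gene from highest to lowest mean level. Grey points and lines are means with unadjusted 95% intervals without the replicate block, purple lines the intervals with it and open symbols the 3 pairs; HOXA11, HOXB3 and HOXC9 have the intervals that narrow most.

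Some HOX genes differed more between replicate numbers than between treatments, as did 58.0% of all tested probe sets. HOXA11, a limb zeugopod and urogenital HOX gene in mice, had 9.08, 7.94 and 7.50 in inhibitor arrays, against 8.28, 7.58 and 7.15 in DMSO arrays. Replicate 1 was the highest array of both groups. The means of same-numbered arrays were 8.68, 7.76 and 7.32 for replicates 1, 2 and 3, a range of 1.36 that 2.80% of all tested probe sets reached. The treatment difference was 0.50 ± 0.46, positive in all 3 pairs (limma adjusted p 0.531, and 0.0464 with the block). The blocked call was lost without replicate 1 (0.35; limma adjusted p 0.246) or replicate 2 (0.57; 0.117) of both groups.

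Without inhibitor replicate 1 the difference was 0.05. A second HOXA11 probe set put replicate 1 highest too, with 5.60, 4.03 and 4.38 in inhibitor arrays, against 5.27, 4.28 and 3.99 in DMSO arrays (0.16 ± 0.50, and -0.30 without inhibitor replicate 1). HOXC9 ran the other way, with same-numbered means of 9.0, 9.60 and 10.13 for replicates 1, 2 and 3, a range of 1.13. HOXB3 was lowest in replicate 1, at 7.03, against 8.06 in replicate 2 and 7.81 in replicate 3. HOXD8 was highest in replicate 3, at 7.65, with 6.93 in replicate 1 and 6.76 in replicate 2. Its range of 0.89 did not exceed its treatment difference, which was 1.01 in size.

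For HOXA9, by contrast, the same-numbered means of the brighter probe set lay within 0.01 of each other. The range between replicate numbers exceeded the treatment difference for 10 of 17 HOX probe sets, and for 58.0% of all tested probe sets, and its median was 0.35 over the HOX probe sets and 0.30 over all. The source of these replicate differences was not tested.

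The listed TALE homeodomain genes showed no call without the block, 0 of 8 tested against 15.7% of all tested genes, with a median of -0.02. With the block 2 of 8 passed, against 31.6% of all genes. TGIF1 and TGIF2 among the 8 do not belong to the PBX and MEIS families of HOX partners. MEIS1, a cofactor of HOX proteins, was higher, at 7.83, 8.20 and 8.24 in inhibitor arrays, against 7.51, 7.76 and 7.55 in DMSO arrays (0.49 ± 0.16; limma adjusted p 0.0977, and 0.0367 with the block). TGIF1, a TALE repressor that also binds SMAD proteins, was lower, at 7.68, 7.47 and 6.41 in inhibitor arrays, against 8.21, 8.10 and 8.26 in DMSO arrays (-1.01 ± 0.33; 0.0976, and 0.0485 with the block). The groups of both genes, and those of PBX4, did not overlap, which held for 35.8% of all tested probe sets. Without inhibitor replicate 3 the TGIF1 difference was -0.62 (limma adjusted p 0.0493 without the block). The blocked MEIS1 call was lost without any one replicate number of both groups (limma adjusted p 0.0646 to 0.141), and that of TGIF1 without replicate 1 (0.0856) or replicate 2 (0.0931). The others stood at 0.48 ± 0.20 for MEIS2, 0.42 ± 0.15 for PBX4, 0.07 ± 0.16 for PBX3, -0.11 ± 0.12 for TGIF2, -0.17 ± 0.18 for PKNOX2 and -0.33 ± 0.18 for PKNOX1. At an unadjusted p under 0.05, 3 of the 8 were different, against 32.2% of all tested genes (16.4% higher and 15.8% lower).

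Other transcription factors of limb and skin position held larger changes of both signs. Of 19 tested, 6 rose and 3 fell, against 8.17% and 7.50% of all tested genes, and with the block 11 were higher and 3 lower, against 16.5% and 15.2% of all genes. Their median difference was 0.59. The list was chosen with earlier results of these data known, so these shares do not test whether positional factors respond more often. The homeobox gene MEOX2 rose (2.02 ± 0.34, 4.06-fold), as did EN1, which marks ventral limb ectoderm and part of the embryonic dermis (1.79 ± 0.21), and PITX1, a determinant of hindlimb identity (1.67 ± 0.16, 3.19-fold; limma adjusted p 0.00203).

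PITX1 had 11.69, 11.19 and 11.29 in inhibitor arrays, against 9.88, 9.66 and 9.61 in DMSO arrays, far apart. TBX4 and TBX5, the hindlimb and forelimb T-box genes, averaged 3.00 and 2.59 in inhibitor arrays, against 2.88 and 2.62 in DMSO arrays, both below the limit; they were chosen after their values were seen. EMX2 (1.27 ± 0.17), TBX15, a T-box gene of dorsal dermis in mice (0.89 ± 0.16), and GLI3, a mediator of hedgehog signalling (0.80 ± 0.18), rose too.

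The falls were ZIC1, a zinc finger gene of the neural tube and dorsal mesoderm, MSX1 (-1.43 ± 0.24) and TWIST2, a dermal fibroblast factor (-0.58 ± 0.13). ZIC1 had 5.25, 6.54 and 7.23 in inhibitor arrays, against 10.02, 10.04 and 9.68 in DMSO arrays, 11.9-fold lower (-3.57 ± 0.48; limma adjusted p 0.0062). The calls of PITX1, EN1, EMX2 and ZIC1 held without each single array. Of the 6 arrays left out in turn, 1 ended the MEOX2 call, 2 that of MSX1, and 4 each those of GLI3 and TBX15 (limma adjusted p up to 0.112). The TWIST2 call was lost in all 6 cases (limma adjusted p 0.0528 to 0.102).

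**Figure D4:**
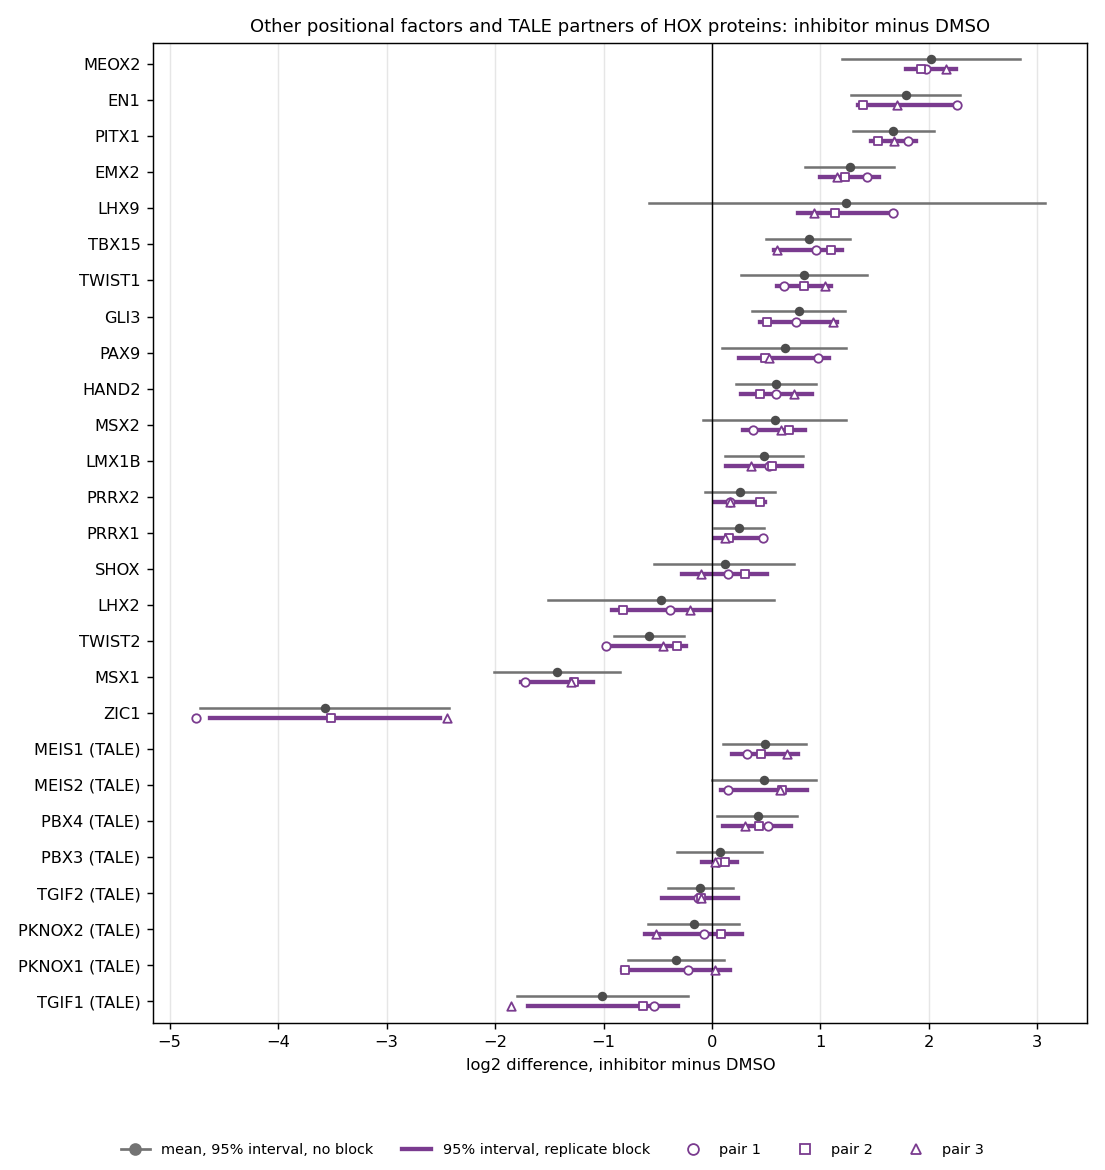
Log2 difference, inhibitor minus DMSO (horizontal axis), for 19 tested positional transcription factors and 8 TALE homeodomain genes, each sorted from high to low. Grey points and lines are means with unadjusted 95% intervals without the replicate block, purple lines the intervals with it and open symbols the 3 pairs; MEOX2, EN1 and PITX1 lie farthest to the right and ZIC1 farthest to the left.

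Polycomb and Trithorax genes, which keep HOX clusters silent or active, were called about as often as all genes without the block. Of 16 tested, 2 fell and 0 rose (limma; 2 and 1 at an unadjusted p under 0.05), against 15.7% of all genes called in either direction (32.2% unadjusted). With the block 2 were lower and 1 higher, against 31.6% of genes in either direction, and the median was 0.07. The Polycomb subunits EED (-0.38 ± 0.10; limma adjusted p 0.0462) and RBBP7 (-0.44 ± 0.11; 0.0488) fell, and JARID2 (0.76 ± 0.36; 0.217, and 0.0225 with the block) and PCGF2 (0.42 ± 0.21; 0.244) did not pass. The other tested EED probe set had the opposite sign and was not called. Leaving out single arrays in turn ended the EED call in all cases but inhibitor replicate 3 and the RBBP7 call in all cases (limma adjusted p 0.0636 to 0.141 for RBBP7), as no filter did for both. The blocked calls of EED, RBBP7 and JARID2 were lost without replicate 1 or replicate 2 of both groups. HOX-silencing methylase EZH2 stood at -0.07 ± 0.10 and the Trithorax methylase KMT2A at 0.15 ± 0.11; both were chosen after their values were seen.

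Of the retinoid and CDX genes that act upstream of HOX genes in embryos, 1 of 6 tested rose and 1 fell, against 8.17% and 7.50% of all genes, with a median difference of -0.80. With the block 1 was higher and 4 were lower, against 16.5% and 15.2% of genes. ALDH1A3, which makes retinoic acid, rose (1.36 ± 0.32; limma adjusted p 0.0373), and RDH10, which makes its precursor, fell (-1.06 ± 0.13; 0.0051). The nuclear receptor RXRG (-1.72 ± 0.87; 0.246, and 0.0054 with the block) and the retinoic acid enzyme ALDH1A2 (-1.04 ± 0.84; 0.470, and 0.0213 with the block) passed only with the block. Across the 6 arrays RXRG spanned 3.61 to 8.02 and ALDH1A2 3.68 to 7.1, and both were below the limit in inhibitor replicate 2. The blocked ALDH1A2 call was lost without replicate 1 of both groups (limma adjusted p 0.119). RARB was also lower with the block, at -0.57 ± 0.71 (limma adjusted p 0.65, and 0.0436 with the block). RARB was chosen after its values were seen. Without the block, the ALDH1A3 call held in 1 of 6 fits that left out an array, that without inhibitor replicate 2, and was lost in the others (0.0548 to 0.116) and with no filter (0.102). Of 3 CDX2 probe sets, 1 reached the limit in all 6 arrays and the others did not pass the filter. That probe set had 5.39, 5.32 and 5.10 in inhibitor arrays, against 5.26, 5.26 and 5.25 in DMSO arrays (0.01 ± 0.13). CDX1, CDX4, CYP26A1, CYP26B1 and CYP26C1 did not pass the filter.

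Genes beside the clusters in vertebrate genomes held calls in both directions. Of 11 tested, 2 rose and 2 fell, against 8.17% and 7.50% of all genes, with a median difference of -0.04. The counts with the block were also 2 and 2, against 16.5% and 15.2%. HIBADH (0.89 ± 0.13; limma adjusted p 0.00912) and TAX1BP1 (0.37 ± 0.07; 0.0173), which lie beyond the HOXA13 end of the HOXA cluster, rose. HNRNPA2B1 (-0.38 ± 0.10; 0.0488), beyond the other end, and LNPK (-0.62 ± 0.15; 0.0415), beyond the HOXD13 end of HOXD, fell. Of 3 other HNRNPA2B1 probe sets 2 had the opposite sign, and the HNRNPA2B1, LNPK and TAX1BP1 calls were lost without at least 4 of the 6 arrays when each was left out in turn. EVX1 and EVX2, the homeobox genes that directly follow HOXA13 and HOXD13, were below the limit in every array.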

How the data were processed

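RNA of 6 cultures was measured on Affymetrix chicken arrays. The authors deposited 1 log2 intensity for each probe set on each array, normalized with GCRMA, and also named Partek 6.4, per the submitters' processing notes. Further GCRMA settings are not stated there, and the log2 scale was read from the values (1.118 to 16.02). Scanner files were not used. The number of arrays limits the precision.

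After removal of 96 controls among 38535 probe sets, 16567 (43.1%) reached 4 in at least 3 of 6 arrays and were tested. Gene symbols came from the platform annotation, which can be old (27168 probe sets with 1 symbol, 177 with several, 11094 with none). A gene was represented by its tested probe set with the highest mean. Inhibitor minus DMSO was fitted with limma 3.58.1 in R 4.3.3 (lmFit, eBayes with trend, two-sided), p-values adjusted by Benjamini-Hochberg over the 16567 and a threshold of 0.05; errors are standard errors of the fit without the block. The script was tested on simulated data. Groups came from the sample titles.

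Members and gene lists were chosen with earlier results of these data known. Named were all tested HOX genes and listed TALE genes. In each other list, named were the called members or, with fewer than 4 calls, the 4 with the largest difference. Same-numbered arrays deviated together (0.63, 0.67 and 0.45; unlike numbers -0.45 to -0.14), which is where the pairing by replicate number comes from; the labels do not describe it. Alternatives were the replicate block, median centring, quantile normalization, other filters, no trend, array weights, averaged probe sets and leaving out arrays. Sequences were not used here.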

Additional observations from a re-analysis of the deposited data

How the results depend on the processing

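The array count limits these results, and calls of dim probe sets rest on values near the GCRMA floor. Without the replicate block, the count of HOX probe sets called was 1 under median centring, quantile normalization, no filter, a filter at 6, no trend and array weights, and 0 to 1 when 1 array was left out; the same holds for HOX genes, also with averaged probe sets. With the replicate block it was 8 probe sets and 6 genes. Fits with the block that were added after seeing the data gave 8 probe sets and 6 genes with median centring, 3 and 3 with no filter, 2 and 2 without replicate 1 of both groups, 4 and 4 without replicate 2, and 9 and 7 without replicate 3. The number of HOX probe sets expressed in all 6 arrays was 20, 15 and 10 at limits of 3, 5 and 6, 17 after quantile normalization and 16 to 17 without 1 array.

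For the listed TALE genes the block gave 2 calls, also with median centring, and 1 without replicate 3, and leaving out 1 array gave 0 to 1. For Polycomb and Trithorax genes the count was 0 with no filter, with no trend, and with the block combined with no filter or leaving out replicate 1 or 2; leaving out 1 array gave 0 to 1, and the block itself 3. For upstream signals it was 1 with no filter, 5 with the block, with the block and median centring or without replicate 3, 4 with the block without replicate 2, and 1 to 2 without 1 array. For positional factors it was 14 with the block, also with median centring or without replicate 3, and 4 to 8 without 1 array. For flanking genes it was 2 with no filter, 1 with no trend, 1 with the block without replicate 1, and 1 to 2 without 1 array. The causes were not tested.

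Of 869 refits of 49 probe sets, 726 kept their side of the threshold, 78 lost the call and 47 gained it. The sign turned in 18, all of differences that did not pass the test on either side. The second HOXA6 probe set gave -0.01 with median centring, quantile normalization or the block with median centring, -0.08 with the block without replicate 1, and -0.09 to 0.12 without 1 array. HOXA4 gave 0.03 with the block without replicate 2. Without 1 array, the dim HOXA9 probe set gave -0.02 to 0.00 (0.00 also with the block without replicate 3), the second HOXA11 probe set -0.30 to 0.54, HOXD13 -0.15 to 0.06 and PBX3 -0.07 to 0.18. PKNOX2 gave 0.01 with the block without replicate 3, and EZH2 0.01 with the block without replicate 1. With all arrays, the replicate block ended no call among the 49. It could turn no sign there, because every replicate number has 1 array per group, which leaves the difference unchanged.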

Other observations

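HOXA10-AS, an antisense RNA whose annotated span lies within that of HOXA9, is not a member by the symbol rule. Its symbol is carried by 2 probe sets, and which strand each of them binds was not tested. The brighter one had 6.04, 5.90 and 6.09 in inhibitor arrays, against 5.93, 5.57 and 5.71 in DMSO arrays, with overlap between the groups (0.27 ± 0.15, SE, 3 arrays per group; limma adjusted p 0.287). The dimmer one had 4.60, 4.69 and 4.78 in inhibitor arrays, against 4.34, 4.20 and 4.55 in DMSO arrays, without overlap (0.33 ± 0.15; limma adjusted p 0.197 unblocked and 0.159 blocked by replicate). A probe set annotated to both HOXD10 and HOXD8 stayed at 2.29 to 2.4 in all 6 arrays, although another HOXD8 probe set was well above the limit. IRX1, a homeobox gene of limb and dermis, reached the limit in replicate 3 alone, with 5.89 in the inhibitor array, against 4.35 in the DMSO array; it was chosen after its values were seen.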
